A study of Mus musculus with 5 samples.

Results

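The cells described here are sinusoidal endothelial cells of the mouse liver that carried messenger RNA of Kit, Wnt2 or both, markers of the sinusoid end near the central vein, and no counted molecule of the portal-side genes Efnb2, Dll4 and Ntn4. They numbered 193 of the 17188 cells that passed the filters. The 2 sham libraries held 118 and 60 of them, and the 3 libraries from mice with partial ligation of the inferior vena cava (pIVCL) held 10, 4 and 1. The ligation narrows the vein that drains the liver and serves as a mouse model of hepatic congestion. All mice were wild-type males, 9 weeks old at surgery, whose livers were taken after a further 2 weeks, and sham mice had surgery without ligation. Livers were digested with pronase and collagenase, hepatocytes were spun out at low speed, dead cells and erythrocytes were removed on a Percoll gradient, and the remaining cells were captured on the BD Rhapsody system for whole-transcriptome sequencing. Sham 1, sham 2 and pIVCL 1 carry the batch label 2021.3, and pIVCL 2 and pIVCL 3 the label 2021.7. Each library is labelled as coming from a mouse, but the labels do not say that the mice differed. A p-value between groups thus reflects only how far libraries of a group spread. In the zone and interaction tests it reflects how far the zone difference within a library varied between libraries. Either spread may be technical. Values for the 5 libraries are given below in the order sham 1, sham 2, pIVCL 1, pIVCL 2, pIVCL 3.

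Blood enters a liver lobule at the portal triad, runs along the sinusoids and leaves by the central vein. The fenestrated endothelium that lines the sinusoids clears waste from blood with scavenger receptors, and its gene expression changes along this path. Pericentral endothelium secretes Wnt2, Wnt9b and the Wnt enhancer Rspo3, which keep pericentral enzymes expressed in neighbouring hepatocytes. Kit is the receptor for stem cell factor, the product of Kitl. On the portal side the endothelium expresses the Notch ligand Dll4 and the ephrin ligand Efnb2.

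A cell was a member when it held at least 10 molecules of Stab2, Clec4g, Kdr and Dnase1l3 together, at least 6 of Stab2 and Clec4g, fewer than 10 of the Kupffer cell genes Clec4f, Cd5l and Vsig4, at most 2 of the tip-cell genes Esm1 and Angpt2, at least 2 of Kit and Wnt2, none of Efnb2, Dll4 and Ntn4, and at most 1 of Rspo3 and Wnt9b. The members were thus chosen by the measured counts of these 16 genes, and their levels are described without a test. The comparison cells, called periportal here, met the same shared conditions but held at least 2 molecules of Efnb2, Dll4 and Ntn4 and none of Kit and Wnt2. They numbered 853, 832, 448, 691 and 206. The members held 598102, 288376, 34747, 21456 and 4835 molecules in all. Their median per cell was 4949, 4745, 3381, 5025 and 4835 molecules, against 4914, 4708, 3912, 4001 and 4236 in periportal cells. Levels below are molecules of a gene per 1000000 molecules of the same cells of a library (CPM). A single molecule was worth 207 CPM in the only pIVCL 3 member, so a 0 there says little. Any 2 libraries shared between 8 and 30 cell index numbers, which were kept as separate cells.

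Promoters of 4 genes from the gate or the zone comparison are shown. Wnt2 was used to choose the cells, Lfng was higher in pericentral cells, and Ednrb and Cxcl12 had no molecule in any member. Each promoter is the 250 bases before the transcription start on the gene's strand, from RefSeq on GRCm38.p6, older than the GRCm39 of the counts. They lie at chr6:18030446-18030695 (minus strand), chr5:140607091-140607340 (plus), chr14:103843702-103843951 (minus) and chr6:117168285-117168534 (plus). Capitals mark matches on either strand to TGGGAA, the core bound by the Notch effector RBPJ, or to ATCAAAG, the core bound by the Wnt effectors TCF and LEF.
Wnt2: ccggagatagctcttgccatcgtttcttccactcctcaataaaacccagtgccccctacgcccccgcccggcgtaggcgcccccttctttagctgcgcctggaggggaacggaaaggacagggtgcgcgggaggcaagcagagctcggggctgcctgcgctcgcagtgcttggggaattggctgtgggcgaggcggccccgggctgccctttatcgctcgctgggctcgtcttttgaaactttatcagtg
Lfng: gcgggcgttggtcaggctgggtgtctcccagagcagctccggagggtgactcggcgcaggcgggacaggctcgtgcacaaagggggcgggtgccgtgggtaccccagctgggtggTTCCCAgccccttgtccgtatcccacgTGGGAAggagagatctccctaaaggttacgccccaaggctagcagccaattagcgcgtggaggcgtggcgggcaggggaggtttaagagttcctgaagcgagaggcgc
Ednrb: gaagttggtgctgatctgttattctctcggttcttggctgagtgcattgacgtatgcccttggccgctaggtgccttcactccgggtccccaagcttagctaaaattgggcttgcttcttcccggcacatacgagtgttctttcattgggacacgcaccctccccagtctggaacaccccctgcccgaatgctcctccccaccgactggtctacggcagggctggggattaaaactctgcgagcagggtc
Cxcl12: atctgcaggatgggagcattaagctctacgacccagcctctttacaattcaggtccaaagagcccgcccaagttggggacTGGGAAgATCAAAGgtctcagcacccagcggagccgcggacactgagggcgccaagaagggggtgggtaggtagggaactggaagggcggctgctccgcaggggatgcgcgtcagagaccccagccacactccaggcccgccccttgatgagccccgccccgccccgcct
The Lfng promoter held TGGGAA once on each strand, 108 and 135 bases before the start. In the Cxcl12 promoter TGGGAA and ATCAAAG lay close together without overlapping, 170 and 163 bases before the start. The TEAD core GGAATG and AGATAA, a form of the GATA core, were also searched on both strands, without a match in these windows. Other forms of the GATA core were not searched, so a GATA site may still lie there. Wnt2 and Ednrb had no match to any of the 4, which says only that these letters are not there. TGGGAA was found in 21.5% of 27025 RefSeq promoters of this length, ATCAAAG in 3.23%, GGAATG in 12.6% and AGATAA in 10.3%. Among the 6010 genes tested between the zones (below) that had a promoter in the table, the shares were 19.8, 2.13, 9.95 and 5.12%. Of the genes that differed, 44 of the 61 higher and 76 of the 96 lower in pericentral cells had a promoter there. TGGGAA stood in 13.6% of the higher and 26.3% of the lower genes, and ATCAAAG in 9.09% (4 promoters) and 2.63% (2 promoters). GGAATG stood in 13.6 and 10.5%, and AGATAA in 4.55% (2 promoters) and 7.89% (6 promoters). A match is a string of letters, not a bound site.

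The label of the cells was checked against sinusoidal genes that the gate did not use. The scavenger receptor gene Stab1 stood at 1812, 1495, 1640.4, 979 and 620.5 CPM in the members. The mannose receptor gene Mrc1 stood at 2707, 2667, 1698, 606 and 2068 CPM, and F8, which encodes coagulation factor VIII, at 1777, 2053, 1468, 1258 and 2068 CPM. Members of all 5 libraries thus carried sinusoidal genes at high levels. Mast cells also express Kit, and their genes Cpa3, Mcpt4 and Fcer1a had 0 molecules in the members of every library. The arterial genes Sema3g, Bmx and Gja5, the lymphatic genes Pdpn and Mmrn1 and the 8 genes of the cholangiocyte list were also at 0. Levels of the other planned markers, the arterial genes Gja4 and Clu and the lymphatic gene Prox1, are not given here. The zeros thus do not speak for every marker of these vessels. Of the 14 genes of the portal and arterial list, however, 6, 6, 4, 3 and 1 were detected in the members. That list made up 0.0314, 0.0406, 0.0288, 0.0280 and 0.0207% of member molecules, against 0.0508, 0.0498, 0.0503, 0.0758 and 0.0668% in periportal cells. Central vein genes outside the gate made up 0.207, 0.212, 0.256, 0.419 and 0.641%, against 0.282, 0.283, 0.402, 0.419 and 0.394%. Hepatocyte genes made up 0.0592, 0.0302, 0.135, 0.117 and 0.0620% of the members' molecules, against 0.0907, 0.0364, 0.132, 0.197 and 0.171% in periportal cells. Kupffer genes outside the gate made up 0.0120, 0.0246, 0.00576, 0.886 and 0.0414%, against 0.0168, 0.0194, 0.0292, 0.0882 and 0.0689%. Lymphocyte genes made up 0.0149, 0.0205, 0, 0.00932 and 0%, against 0.0147, 0.00750, 0.00353, 0.0253 and 0.00456%. Of the 21456 molecules of pIVCL 2 members, 9518 came from 1 cell, which also held the macrophage genes described below.

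Of the members, 134 held both Kit and Wnt2, 40 held Kit alone and 19 held Wnt2 alone, and 48 stood at the lowest allowed sum of 2. Kit stood at 594, 472, 604, 326 and 207 CPM and Wnt2 at 389.6, 385, 604, 186 and 207 CPM. Just outside the threshold, 24, 20, 11, 6 and 1 cells met every other condition with a Kit and Wnt2 sum of 1. On the portal side, 175, 123, 19, 10 and 8 cells missed by 1 molecule of Efnb2, Dll4 or Ntn4. That condition kept few cells. Among cells that met every condition except the Kit and Wnt2 and the portal ones, 47.7, 41.3, 22.8, 13.6 and 16.3% had a Kit and Wnt2 sum of at least 2, whereas 6.38, 4.47, 4.69, 3.06 and 0.923% had no portal molecule.

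The members made up 2.66% (exact Clopper-Pearson 95% interval 2.20 to 3.17), 1.57% (1.20 to 2.01), 0.384% (0.185 to 0.706), 0.115% (0.0313 to 0.294) and 0.0353% (0.000894 to 0.197) of the cells of their libraries. The intervals cover counting error only. Both sham libraries lay above all 3 pIVCL libraries, with means of 2.11 ± 0.771% (SD, n = 2) and 0.178 ± 0.183% (SD, n = 3). After thinning every cell to 2000 molecules, with shallower cells left out (4441, 3831, 2486, 3328 and 1815 remained), the shares were 4.73, 3.42, 0.764, 0.240 and 0.220%, and the groups again did not overlap. The tip-cell condition bore on the share too, since 97.1, 95.7, 65.2, 63.2 and 56.6% of sinusoidal cells had at most 2 molecules of Esm1 and Angpt2. The share restates the gate genes, so it is a description and was not tested. Batch 2021.7 holds pIVCL libraries only. Within batch 2021.3 the shares were 2.66 and 1.57% in sham and 0.384% in pIVCL 1.

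**Figure D1:**
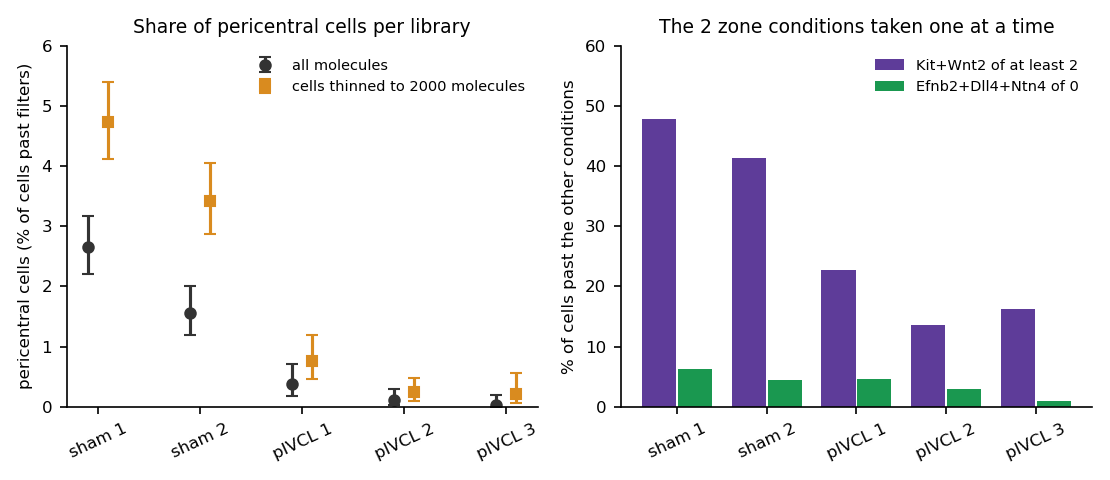
Pericentral cells as a percentage of the cells past the filters in each library, with exact 95% intervals, from all molecules (circles) and after thinning to 2000 molecules (squares). The right panel gives the percentage of cells past the other conditions that passed each zone condition alone, as bars. Both sham libraries (2.66 and 1.57%) lie above the 3 pIVCL libraries (0.384, 0.115 and 0.0353%).

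Pericentral and periportal cells of the same library were compared first, to see what the members expressed beyond the genes that chose them. Members carried more RNA for the adhesion protein Cdh13, the Notch-modifying enzyme Lfng, the lectin Lgals1, the prostaglandin synthase Ptgs1, the plasminogen activator Plau and the anticoagulant receptor Thbd. They carried less for the scavenger receptor Msr1, the surface protein Ly6a, the ephrin ligand Efnb1 and the transcription factor Mecom. RNA for the endothelin receptor Ednrb, the binding protein Igfbp5 and the chemokine Cxcl12 was counted in periportal cells of all 5 libraries and in no member. In edgeR quasi-likelihood tests on counts summed per library and zone, with library as a block, 157 of 7435 genes outside the gate (2.11%) passed a Benjamini-Hochberg adjusted p of 0.05. Of these, 61 (0.82%) were higher and 96 (1.29%) lower in pericentral cells, and 689 genes had an unadjusted p under 0.05. The median log2 difference over all tested genes was -0.07. The calls rest mainly on the sham libraries, which hold 178 of the members: without sham 1 or sham 2 the count was 31 and 33, the sham libraries alone gave 465 and the pIVCL libraries alone gave 6.

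Among genes of signalling and adhesion, Lfng, a glycosyltransferase that alters how Notch receptors read their ligands, stood at 187, 169.9, 230.2, 326 and 414 CPM in pericentral cells and at 24.7, 20.9, 67.3, 99.2 and 91.2 CPM in periportal cells. It was higher in the members of all 5 libraries, by 2.45 ± 0.24 (log2 ± SE, edgeR adjusted p = 1.3e-20). Cdh13, a cadherin held to the membrane by a lipid anchor, stood at 283, 249.7, 201, 93.2 and 0 CPM against 36.3, 32.4, 44.5, 48.0 and 102 CPM. Its log2 difference was 2.55 ± 0.24 (edgeR adjusted p = 1.8e-23), and the exception among the libraries was pIVCL 3 with its single member. Lgals1, which encodes galectin 1, stood at 436, 503, 317, 279.6 and 0 CPM against 96.4, 85.9, 100.4, 69.5 and 65.1 CPM (2.11 ± 0.23, edgeR adjusted p = 1.7e-17). Gas6, a ligand of the TAM receptors that recognise dying cells, stood at 411, 354, 691, 93.2 and 0 CPM against 143, 135, 130.3, 98.3 and 86.8 CPM (1.45 ± 0.23, edgeR adjusted p = 5.1e-08). Gas6 was thus higher in the members of sham 1, sham 2 and pIVCL 1 and not in those of the other 2 libraries. Jup, which encodes the junction protein plakoglobin, stood at 166, 156, 0, 186 and 0 CPM against 12.6, 23.1, 39.1, 52.6 and 80.3 CPM (2.55 ± 0.29, edgeR adjusted p = 8.4e-14).

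Genes of clotting, fibrinolysis and prostaglandin synthesis formed another group. Thbd, thrombomodulin, stood at 221, 215, 115, 233 and 0 CPM in members and at 97.3, 114, 44.0, 49.3 and 53.2 CPM in periportal cells (1.09 ± 0.24, edgeR adjusted p = 0.00044). Plau, urokinase, stood at 152, 79.8, 432, 326 and 207 CPM against 18.5, 9.98, 113, 174 and 173 CPM (2.12 ± 0.25, edgeR adjusted p = 4.8e-14). All 5 libraries had Plau higher in the members, with a wide gap in sham and a narrow one in pIVCL 3. Ptgs1, cyclo-oxygenase 1, stood at 475, 381, 604, 373 and 414 CPM against 148, 157, 172, 157 and 206 CPM (1.37 ± 0.23, edgeR adjusted p = 3.7e-07). The Ptgs1 values of the zones did not overlap across the libraries. Thbd and Plau were the 2 of 7 tested coagulation and fibrinolysis genes that passed (list median 0.53), and Ptgs1 was 1 of 4 tested prostaglandin genes (list median 0.40). Over all tested genes 0.82% passed as higher.

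Having all 5 libraries on the same side was a condition for naming the next genes, as for Lfng, Plau and Ptgs1 above. Further genes with large differences that met it were Kctd12 (1.52 ± 0.25), Olfm1 (1.49 ± 0.22), Rarb (1.32 ± 0.25), Mmd (1.28 ± 0.25), Rap2a (1.26 ± 0.25), Sirpa (1.08 ± 0.25) and Gngt2 (0.92 ± 0.26). Rarb encodes a retinoic acid receptor, Rap2a a small GTPase, Sirpa an inhibitory receptor that binds CD47, and Gngt2 a G-protein subunit. Olfm1, an extracellular olfactomedin protein, stood at 375, 395, 691, 559 and 207 CPM in members and at 138, 144, 133, 161 and 164 CPM in periportal cells. Its members' values lay above all periportal values. Tiam1, an activator of the GTPase Rac, was higher in the members of both sham libraries, at 224 and 277 against 104 and 123 CPM, and had no molecule in the 15 pIVCL members (log2 difference 1.09 ± 0.25, edgeR adjusted p = 0.00085).

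**Figure D2:**
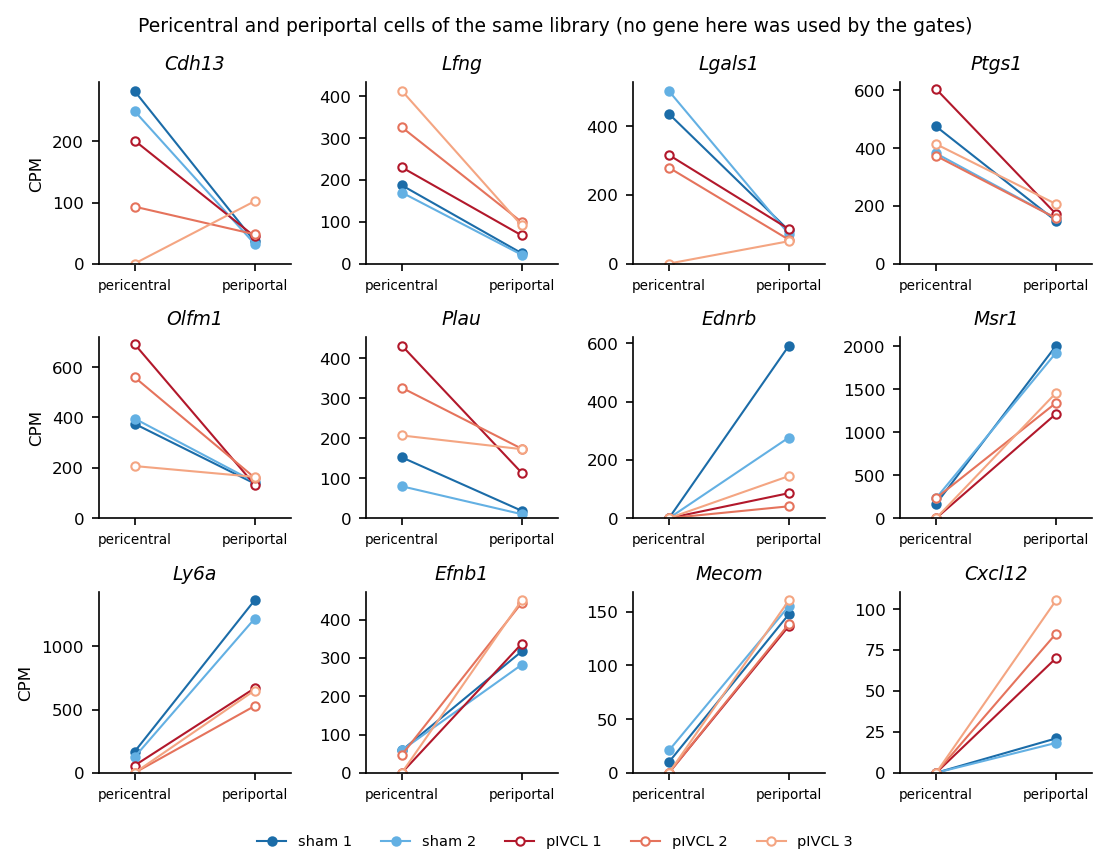
CPM of single genes in pericentral and periportal cells joined by a line for each library (filled points, sham; open points, pIVCL). Lines fall for Lfng, Ptgs1, Olfm1 and Plau and rise for Ednrb, Msr1, Ly6a, Efnb1, Mecom and Cxcl12 in all 5 libraries, whereas those of Cdh13 and Lgals1 fall in 4 and rise in pIVCL 3, which has 1 member.

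On the lower side, Ednrb, the endothelin B receptor, by which endothelial cells take up endothelin and release nitric oxide, had 0 of 947516 member molecules. Periportal cells held 591, 277, 85.8, 40.7 and 144 CPM, and within sham the members were at least 129.7-fold lower, taking a floor of 3 molecules over the sham members, or 3.38 CPM (edgeR adjusted p = 1.2e-40). The same sham libraries and floor apply to the next 2 genes. Igfbp5, an insulin-like growth factor binding protein, was at 0 against 83.3, 36.3, 22.3, 19.8 and 45.6 CPM, at least 17.9-fold lower (edgeR adjusted p = 1.5e-12). Cxcl12, a chemokine that attracts CXCR4-bearing cells, was at 0 against 21.0, 18.3, 70.0, 85.0 and 105 CPM, at least 5.81-fold lower (edgeR adjusted p = 4.0e-06). Ednrb stands in the list of pericentral genes used here, and its direction in these cells went against that list. Msr1, a class A scavenger receptor, stood at 167, 232, 0, 233 and 0 CPM in members and at 2004, 1923, 1213, 1340.4 and 1457 CPM in periportal cells (-3.52 ± 0.34, edgeR adjusted p = 1.5e-22). Ly6a, which encodes Sca-1, stood at 167, 125, 57.6, 0 and 0 CPM against 1362, 1217, 668, 527 and 650.2 CPM (-3.28 ± 0.33, edgeR adjusted p = 1.1e-20). Neither gene's values overlapped between the zones.

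Signalling genes of the portal side differed in the same direction as the gate genes Efnb2 and Dll4. Efnb1, a ligand of Eph receptors, stood at 58.5, 59.0, 0, 46.6 and 0 CPM in members and at 317, 282, 337, 444 and 450.5 CPM in periportal cells (-2.59 ± 0.31, edgeR adjusted p = 4.0e-14). Kitl, the ligand of Kit, stood at 100.3, 166, 28.8, 93.2 and 0 CPM against 251, 288, 210.1, 189 and 157 CPM (-1.19 ± 0.27, edgeR adjusted p = 0.00076). The receptor gene Kit and the ligand gene Kitl thus had opposite zones, the first by the gate and the second by test. Mecom, a zinc finger transcription factor, had 12 molecules in the members, at 10.03, 20.8, 0, 0 and 0 CPM, against 148, 155, 137, 139 and 161 CPM (-3.57 ± 0.41, edgeR adjusted p = 1.7e-15). Galnt15, a glycosyltransferase, differed by -3.56 ± 0.43. Of genes with 1 to 3 molecules in the sham members only wide ratios can be given, all within sham. Their exact intervals cover counting error only, not spread between cells or libraries. Periportal cells there held 33.7 times as much Cd34 (exact interval 9.30 to 279), a progenitor and capillary marker, and 75.5 times as much Plac8 (13.5 to 2987). They held 38.4 times as much Slc45a4 (6.86 to 1522), and 6.93 times as much Sod3 (2.34 to 33.9), the extracellular superoxide dismutase. The growth factor Vegfc and the endothelin gene Edn1 had no molecule in the sham members and were at least 11.98-fold and 5.71-fold lower there than in sham periportal cells. Their only member molecules, 3 and 2, were in pIVCL 1. Smaller differences passed for Bmpr2, a BMP receptor (-0.90 ± 0.27), Hes1, a Notch target (-0.98 ± 0.26), and Lama4, a laminin chain of basement membrane (-1.46 ± 0.28).

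By gene list, 8 of the 14 tested pericentral genes outside the gate passed as higher (Thbd, Cdh13, Ptgs1, Tiam1, Lgals1, Selp, Plpp1 and Gas6), 1 passed as lower (Ednrb) and 5 did not pass, with a median of 1.06. Of 14 tested periportal genes outside the gate, 10 passed as lower and none as higher, with a median of -2.22. The pericentral list named 21 genes with 4 gate genes and the periportal list 20 with 3, and the rest fell below the filter on low counts. Both lists were drawn up for these zones. None of 20 tested sinusoidal identity genes outside the gate passed (median -0.21). Of 24 endothelial transcription factors 2 passed, Mecom and Meis1, both lower. None of 8 tested Wnt ligands and receptors and none of 3 tested Wnt target genes passed, and Lef1 and Axin2 were at or below 10.4 and 5.02 CPM in the members. Of 19 tested genes of Kit signalling 1 passed, Kitl. None of 12 YAP and TEAD target genes and none of 16 immediate early genes passed. Over all 7435 tested genes 2.11% passed, 0.82% as higher and 1.29% as lower. In lists this short, few or no calls therefore say little about a pathway.

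Type I interferon genes were lower for 4 of 16 tested (median -0.60), and the other 12 did not pass. Over all tested genes 1.29% passed as lower. Ifit3, an interferon-induced antiviral protein, stood at 50.2, 20.8, 28.8, 0 and 0 CPM in members and at 89.1, 90.6, 107, 167 and 147 CPM in periportal cells (-1.39 ± 0.32, edgeR adjusted p = 0.0016). All 5 libraries had Ifit3 lower in the members, without overlap. The other 3 were Ifit1 (-1.59 ± 0.42), Isg15 (-1.75 ± 0.49) and Ifi44 (-0.92 ± 0.28).

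Genes of some other cell types also differed between the zones. Lower in members were 2 of 3 tested erythroid and 2 of 4 tested stellate cell and fibroblast genes, and higher were 2 of 6 tested Kupffer genes, whereas none of 19 tested hepatocyte genes passed. Over all tested genes 1.29% passed as lower and 0.82% as higher. Of the haemoglobin genes, Hba-a1 stood at 3.34, 13.9, 0, 0 and 0 CPM in members and at 13.0, 111, 19.5, 644 and 361 CPM in periportal cells. The stellate cell and fibroblast gene Dcn stood at 13.4, 13.9, 0, 0 and 0 CPM against 48.4, 39.2, 140.1, 285 and 573 CPM. The erythroid list made up 0.00451, 0.00520, 0.00576, 0 and 0% of member molecules and 0.00977, 0.0416, 0.0106, 0.189 and 0.126% of periportal ones, with 8 of 8 genes at 0 in the members of pIVCL 2 and pIVCL 3. The stellate and fibroblast list made up 0.00869, 0.0101, 0.00576, 0.0140 and 0.0207% against 0.0206, 0.0187, 0.0473, 0.0737 and 0.149%. The part of these RNAs in the genes lower in pericentral cells was not tested. On the higher side, 3 of 4 tested cell cycle genes passed, and these rest on few cells. Top2a had 57 molecules in 4 members of sham 1, of which 46 were in 1 cell, and 62 in 3 members of sham 2. The Kupffer genes C1qa and Cd68 passed as higher with 606 and 792 CPM in pIVCL 2, which has 4 members, and 24.3 CPM or less of each in both sham libraries. Of the 13 C1qa molecules in pIVCL 2 members, 12 were in 1 cell.

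The zones are the ends of a continuous range, so intermediate cells were laid between them in the sham libraries, where cells were many. Cells with both kinds of molecules were split by which sum was higher, giving 4 steps from pericentral to periportal (118, 500, 977 and 853 cells in sham 1, and 60, 360, 871 and 832 in sham 2). Cdh13 stood at 283, 253, 92.1 and 36.3 CPM along these steps in sham 1 and at 249.7, 213, 69.2 and 32.4 CPM in sham 2. Lfng stood at 187, 120.0, 59.2 and 24.7 CPM and at 169.9, 123, 60.8 and 20.9 CPM. Both genes thus fell step by step in both libraries. In the other direction Msr1 stood at 167, 365, 1120.0, 2004 CPM and at 232, 345, 1051, 1923 CPM. Ly6a stood at 167, 199, 519.9 and 1362 CPM and at 125, 205, 471 and 1217 CPM. Ednrb had a steeper course, at 0, 22.2, 94.4 and 591 CPM and at 0, 5.64, 16.5 and 277 CPM. Cxcl12 had no such order, at 0, 19.1, 21.5 and 21.0 CPM and at 0, 19.3, 13.1 and 18.3 CPM. Mixed cells with the higher Kit and Wnt2 sum thus stood near the periportal level of Cxcl12. The order was examined for the genes that the naming rule took from the zone comparison, which leaves out Tiam1, Jup and Plpp1. Of those higher in pericentral cells, 11 fell at every step in both sham libraries and 9 did not, Gas6 and Thbd among the latter. Of those lower, 14 rose at every step in both and 17 did not. In the pIVCL libraries, where members were few, the mixed cells with the higher Kit and Wnt2 sum held 345, 124 and 201 CPM of Cdh13, against 44.5, 48.0 and 102 CPM in periportal cells, and 317, 346 and 536 CPM of Lfng against 67.3, 99.2 and 91.2 CPM. These mixed cells were above periportal cells for both genes in all 3. The members themselves, at 201, 93.2 and 0 CPM of Cdh13 and 230.2, 326 and 414 CPM of Lfng, lay below the mixed cells in all 3, so no step-by-step order held up to the pericentral end. These values come from libraries that the zone test also used and are a description.

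**Figure D3:**
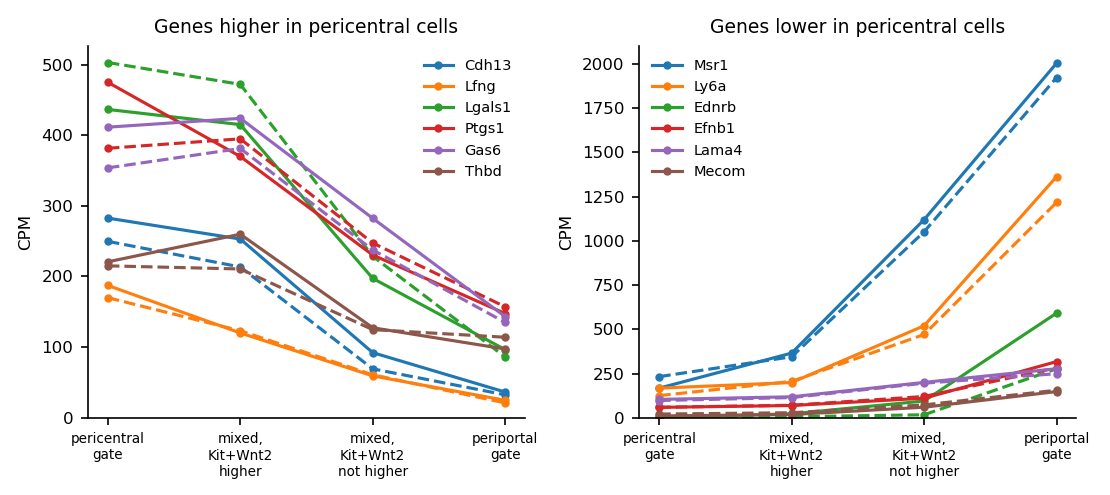
CPM of single genes in 4 sets of sham cells ordered from the pericentral to the periportal gate (solid lines, sham 1; dashed lines, sham 2). Cdh13 and Lfng fall and Msr1, Ly6a and Ednrb rise at every step in both libraries.

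The second comparison asked how the members differed between pIVCL and sham. Members from ligated mice carried more RNA for the hyaluronan receptor Lyve1, the matrix protein Ccn2 and the fenestral diaphragm protein Plvap. They carried less for the membrane protein Adam23, the butyrophilin-like protein Btnl9 and the complement regulator Cd55. In edgeR quasi-likelihood tests on counts summed per library, these were the 6 of 722 genes outside the gate (0.831%) that passed a Benjamini-Hochberg adjusted p of 0.05, with 3 (0.416%) higher and 3 (0.416%) lower. An unadjusted p under 0.05 was found for 128 genes, and the libraries of the groups did not overlap for 234 genes (32.4%). The median log2 difference was -0.05. The pIVCL side held 15 cells and 61038 molecules against 178 cells and 886478 molecules in sham, which left 722 genes above the filter on low counts.

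Lyve1 stood at 667, 687, 2302, 5173 and 10755 CPM, with all 3 pIVCL libraries above both sham libraries and pIVCL 3 highest. All 10, 4 and 1 pIVCL members held Lyve1 molecules, against 83 of 118 and 45 of 60 sham members, and the log2 difference was 2.87 ± 0.50 (edgeR adjusted p = 0.0413). Ccn2, a secreted protein and a target of the transcriptional regulators YAP and TEAD, stood at 83.6, 41.6, 748, 186 and 620.5 CPM (2.89 ± 0.60, edgeR adjusted p = 0.0418). Its pIVCL molecules were few, with 26 in 7 cells, 4 in 1 cell and 3 in 1 cell. Plvap, which forms the diaphragms of fenestrae, stood at 338, 291, 719, 1212 and 1861 CPM (1.62 ± 0.33, edgeR adjusted p = 0.0418). For each of these 3 genes the groups did not overlap.

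Adam23, a membrane protein of the disintegrin family, stood at 361, 375, 28.8, 0 and 0 CPM. Sham members held 324 molecules in 82 and 39 cells and pIVCL members 1 molecule, a ratio of 22.3. Its exact interval, 3.98 to 884, covers counting error only. The fitted log2 difference was -4.50 ± 0.83 (edgeR adjusted p = 0.0413). Btnl9, a butyrophilin-like protein of endothelium, stood at 445, 454, 86.3, 93.2 and 0 CPM (-2.51 ± 0.51, edgeR adjusted p = 0.0418). Cd55, decay-accelerating factor, which limits complement on the cell surface, stood at 1358, 1179, 489, 279.6 and 207 CPM (-1.79 ± 0.37, edgeR adjusted p = 0.0418). Every pIVCL library lay below both sham libraries for these 3 genes.

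The 6 calls are not stable in number. Each gene kept its sign in every alternative that gave it a value, but leaving out single libraries moved the count from 0 without sham 1 to 35 without pIVCL 1, and it was 2, 9 and 1 without sham 2, pIVCL 2 and pIVCL 3. Batch overlaps with group. With batch as a term no gene passed in edgeR, with 84 at an unadjusted p under 0.05. Within batch 2021.3, with 1 pIVCL library assumed to vary as the sham libraries do, the log2 differences were 1.63 ± 0.20 for Lyve1, 3.32 ± 0.45 for Ccn2, 1.04 ± 0.32 for Plvap, -3.79 ± 0.79 for Adam23, -2.51 ± 0.55 for Btnl9 and -1.52 ± 0.28 for Cd55. Of these Plvap did not pass there (edgeR adjusted p = 0.102), and the other 5 did.

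**Figure D4:**
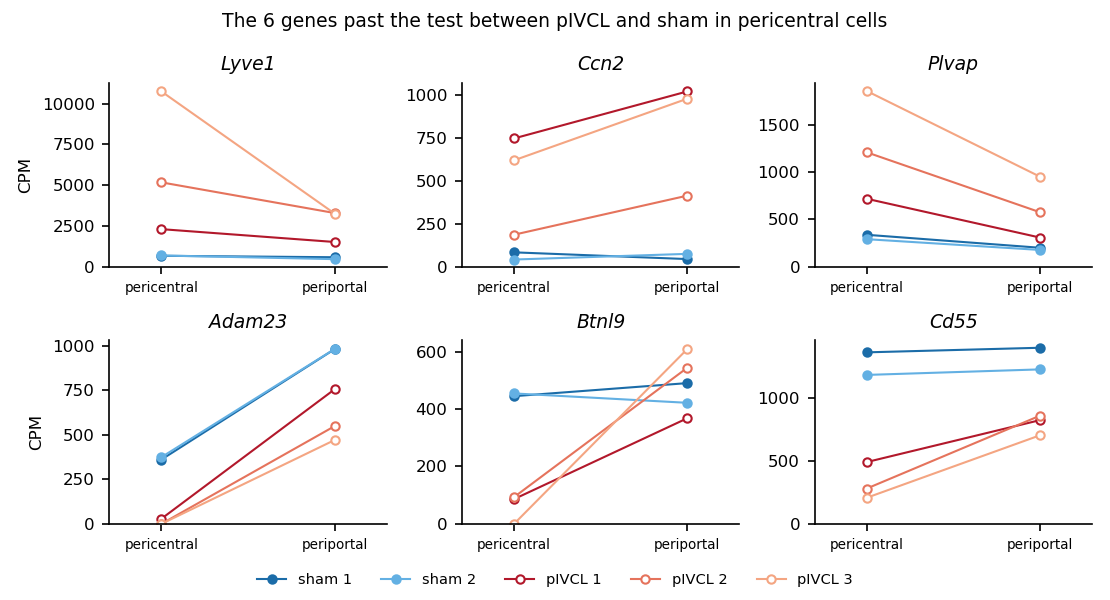
CPM of the 6 genes that passed between the groups, in pericentral and periportal cells joined by a line for each library (filled points, sham; open points, pIVCL). In pericentral cells Lyve1 lies at 667 and 687 CPM in sham and between 2302 and 10755 CPM in pIVCL, and Adam23 at 361 and 375 CPM in sham and at 28.8 CPM or 0 in pIVCL.

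Genes of the pericentral list did not pass between the groups (8 tested, median -0.97), where 0.831% of all 722 tested genes did. Slco2a1, which carries prostaglandins into cells, stood at 585, 558, 230.2, 0 and 0 CPM (-2.21 ± 0.56, edgeR adjusted p = 0.0778). Fabp4, a fatty acid binding protein, stood at 659, 454, 1324, 1818 and 1655 CPM (1.40 ± 0.32, edgeR adjusted p = 0.0640). Both had groups that did not overlap, with adjusted p above the threshold. Tiam1 was too low to be tested, with 214 sham molecules and 0 in pIVCL, which makes it at least 4.91-fold lower in pIVCL at a floor of 3 molecules over the group. Hpgd, which degrades prostaglandins, was also too low, with 251 and 2 molecules, a ratio of 8.64 (exact interval for counting error only, 2.37 to 71.7). Ramp3, a partner of the calcitonin receptor family, stood at 16.7 and 20.8 CPM in sham and had no molecule in pIVCL, where 3 molecules would be 49.1 CPM. Thbd stood at 221, 215, 115, 233 and 0 CPM and Cdh13 at 283, 249.7, 201, 93.2 and 0 CPM.

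Other genes of sinusoidal function are given by value. Bmp2, which signals to hepatocytes in iron control, stood at 2819, 3374, 1756, 1119 and 1241 CPM (-1.20 ± 0.35, edgeR adjusted p = 0.157). Mrc1, the Fc receptor gene Fcgr2b and the angiopoietin receptor gene Tek differed by -1.10 ± 0.40, -1.10 ± 0.49 and -1.12 ± 0.41 and did not pass with this gate. Within batch 2021.3 alone the log2 differences of Mrc1, Fcgr2b and Tek were -0.80, -0.69 and -0.95. Maf and Gata4, transcription factors of sinusoidal endothelium, differed by -0.10 ± 0.41 and 0.03 ± 0.35, the flow-responsive factor Klf2 by 0.18 ± 0.37, and the Wnt receptor gene Fzd4 by -0.10 ± 0.42. Those 4 had signs that changed between alternatives. Plau differed by 1.55 ± 0.52 (edgeR adjusted p = 0.215).

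A wider gate, chosen after the data were seen, took cells in which the Kit and Wnt2 sum was at least 2 and above the portal sum. It held 618, 420, 57, 33 and 19 cells and allowed 4856 genes to be tested, of which 129 passed (2.66%), 70 higher (1.44%) and 59 lower (1.21%). Of the 6 genes above, Plvap, Ccn2, Cd55 and Btnl9 passed there, and Lyve1 (2.50 ± 0.45, edgeR adjusted p = 0.0524) and Adam23 (-1.74 ± 0.55, edgeR adjusted p = 0.212) did not. Of 15 tested pericentral genes 6 were lower in pIVCL (Thbd, Rab3b, Gatm, Hpgd, Slco2a1 and Tiam1) and 2 higher (Fabp4 and Selp), with a list median of -0.98. Tiam1 differed by -3.39 ± 0.44 (edgeR adjusted p = 0.00095) and Hpgd by -2.26 ± 0.26 (edgeR adjusted p = 0.00029). Among growth factor genes Pdgfb, which recruits mural cells, was higher by 3.25 ± 0.29 (edgeR adjusted p = 1.2e-05). Fabp4 was higher by 1.62 ± 0.23 and Plau by 1.83 ± 0.23. This gate overlaps with the stricter one and is not independent of it.

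The same 6 genes were set beside their pIVCL effect in periportal cells, and the difference of the effects was tested as an interaction. Lyve1 and Ccn2 also rose in periportal cells, by 2.30 ± 0.34 (edgeR adjusted p = 0.0406) and 3.69 ± 0.51 (edgeR adjusted p = 0.0485). Plvap differed there by 1.61 ± 0.43 (edgeR adjusted p = 0.163), Cd55 by -0.77 ± 0.16 (edgeR adjusted p = 0.0538) and Adam23 by -0.78 ± 0.21 (edgeR adjusted p = 0.128). Btnl9 differed by 0.09 ± 0.19 in periportal cells, where it stood at 490.2, 422, 368, 544 and 609 CPM. Of the 6, Btnl9 alone passed the interaction test, with an effect lower by 2.96 in members (-2.96 ± 0.64, edgeR adjusted p = 0.0040). For Adam23 the difference of effects was -4.35 ± 1.13 (edgeR adjusted p = 0.0574).

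Over all genes, 14 of 8602 (0.163%) passed the interaction test, 8 (0.093%) with a higher and 6 (0.0698%) with a lower effect in members, and 805 had an unadjusted p under 0.05. The median difference of effects was -0.63, so the test is centred below 0, and it rests on 15 pIVCL members. Prelp, a matrix proteoglycan, stood at 249, 316, 288, 93.2 and 0 CPM in members and at 105, 119, 273, 264 and 414 CPM in periportal cells, where it rose by 1.43 ± 0.20 (edgeR adjusted p = 0.0155; difference of effects -2.38 ± 0.47, edgeR adjusted p = 0.0016). Plau rose in periportal cells by 3.36 ± 0.29 (edgeR adjusted p = 0.0036), and the difference of effects was -2.13 ± 0.44 (edgeR adjusted p = 0.0018). In both sham libraries Prelp and Plau were higher in members, whereas in pIVCL 2 and pIVCL 3 Prelp was higher in periportal cells. The members of pIVCL 2 and pIVCL 3 held only 2 and 0 Prelp molecules, however. In pIVCL 1, with 10 molecules in members, Prelp stood at 288 CPM against 273 CPM in periportal cells. The antigen presentation genes Cd74, H2-Aa and H2-Ab1 had higher effects in members, but 77 of 77 Cd74, 71 of 75 H2-Aa and 62 of 62 H2-Ab1 molecules of pIVCL 2 came from 1 of its 4 members. That cell also held 43 C1qc and 30 Lyz2 molecules, genes of macrophages, beside 30 molecules of Stab2 and Clec4g. With members and periportal cells of 10 or more Cd74 molecules removed, a step added after the data were seen, 7 genes passed.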

How the data were processed

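Whole-transcriptome single-cell RNA was measured in 5 liver libraries. The authors deposited molecule counts per gene and cell, corrected by recursive substitution of molecular identifiers, per the file headers. They were made with version 1.9.1 of the BD Rhapsody pipeline on GRCm39, per the submitters' processing notes. The aligner is not given in the sources used here, nor is the gene annotation. The libraries held 4735, 4056, 2680, 5000 and 3344 cells, and those with at least 500 molecules, at least 200 genes and at most 25% mitochondrial molecules were kept. No ambient-RNA correction was made. Scrublet in scanpy 1.11.5 marked under 0.5% of cells, so removing the top 3% of scores per library was an alternative. Counts were summed per library and gate and tested with edgeR 4.0.16 in R 4.3.3 (TMM, filterByExpr, robust quasi-likelihood, Benjamini-Hochberg at 0.05). The group and zone tests were also run on simulated data with a single dispersion, and the interaction test was not. DESeq2 1.42.0 was an alternative. Plain CPM use the molecules of the gated cells.

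Genes were named by rule: among genes that passed with a mean log2 CPM of at least 5, leaving out gate, other-cell-type, mitochondrial, antigen-receptor, histone and predicted genes, the 12 largest in each direction between groups with no overlap, the 10 largest in each direction between zones with every library on the same side, up to 6 of lowest p in each direction for the interaction, up to 4 of lowest p that passed in each list, and a set taken whatever its value. Tiam1 and Jup between zones, Plpp1, Rab3b, Gatm, Plxnc1, Tspan7 and Cd36 were named after their values were seen. Members and gene lists were chosen with earlier results of these data known.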

Additional observations from a re-analysis of the deposited data

Results flagged for a closer look

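The pIVCL effect differed between pericentral and periportal cells for 11 named genes by the edgeR interaction test with Benjamini-Hochberg adjustment. Differences of the log2 effects are given as pericentral minus periportal, against a median of -0.63 over all genes. They were higher in pericentral cells for Cd74 (2.04 ± 0.39, adjusted p = 0.0016), H2-Aa (1.88 ± 0.38), Cybb (3.06 ± 0.63), H2-Ab1 (1.77 ± 0.41) and Adgrg6 (10.17 ± 2.27). All 77 Cd74 and all 20 Cybb molecules of pIVCL 2 lay in 1 of its 4 members, and without pIVCL 2 the Cd74 difference was -2.10. Adgrg6 had 5 molecules in members of pIVCL 1, all in 1 cell, and none in members of the other libraries. The size of its difference thus rests on that cell and on the fit. They were lower in pericentral cells for Prelp (-2.38 ± 0.47), Jup (-3.33 ± 0.68), Plau (-2.13 ± 0.44), Top2a (-11.38 ± 2.45), Btnl9 (-2.96 ± 0.64) and Slc9a3r2 (-2.77 ± 0.70). Top2a lay in 4 and 3 cells of the sham libraries and in no pIVCL member. Btnl9 had 3, 2 and 0 molecules in the pIVCL members, with the 3 of pIVCL 1 in 1 cell, and Slc9a3r2 had 4, 0 and 0.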

How the results depend on the processing

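Of 6 genes between the groups, the count was 0 with DESeq2 size factors in edgeR (128 at an unadjusted p under 0.05), 22 without the filter, 3 with stricter cell filters, 19 with a zone sum of at least 3, which also drops pIVCL 3 (no member) and tests 2801 genes, 129 with the wider gate, 11 with a Kit and Wnt2 sum of at least 1, 0 with batch as a term (84 unadjusted), 65 in batch 2021.3 alone and 2 by DESeq2's Wald test. Leaving out a library gave 0 (without sham 1; edgeR, 26 unadjusted) to 35. The replicate block gave 15 genes. Labels share replicate numbers but no animal, and same-numbered libraries' deviations correlated at 0.0154 and 0.0679 over 722 genes. With 2 sham libraries the deviations mirror each other, so these values cannot tell whether the numbers pair libraries. Of 157 genes between the zones, the count was 325 without the filter, 69 after thinning, 657 with the wider gate, which also widens the periportal cells (from 853 to 1673 in sham 1 and from 832 to 1556 in sham 2), 465 in sham alone, 6 in pIVCL alone, and 31 to 224 leaving out a library. The share of higher calls was 38.9%, 50.1% without the filter and 55.5% in sham alone. Of 14 interaction genes, the edgeR count was 0 after thinning (643 unadjusted), 47 with the wider gate of both zones, 8 without cycling cells, 7 without cells rich in Cd74, and 0 (without sham 1 or sham 2; 248 and 264 unadjusted) to 29 leaving out a library, with 4 without pIVCL 2 and 27 without pIVCL 3. The difference in share (-1.93 points) was -3.67 after thinning, -3.09 among sinusoidal cells, -11.2 with the wider gate and -2.48 to -1.39 leaving out a library.

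Signs turned as follows, and the cause was not tested. Klf2 between groups was -0.37 without the filter, -0.11 with the wider gate, -0.28 with a sum of at least 1, and -0.41 to 0.31 leaving out a library (-0.41 and -0.25 without sham 1 and pIVCL 2). Fzd4 was 0.19 with the wider gate, 0.034 by DESeq2 and -0.65 to 0.15 leaving out a library (0.15 without pIVCL 1). Gata4 was -0.48 without the filter, -0.18 after thinning, -0.23 with a sum of at least 3, -0.026 without cycling cells, -0.22 without cells rich in Cd74, -0.15 with a sum of at least 1, -0.20 with no Kupffer molecule (no pIVCL 3 member), -0.046 with batch as a term, -0.11 in batch 2021.3, and -0.51 to 0.13 leaving out a library (-0.083, -0.51, -0.13 and -0.35 without sham 1, sham 2, pIVCL 1 and pIVCL 2). Maf was 0.012 with stricter filters, 0.050 with a sum of at least 1 and 0.025 by DESeq2, but -0.65 in batch 2021.3 alone. Between zones in pIVCL alone, Fbln2 was 0.52 and Cdk1 -7.82. In the interaction without pIVCL 2, with a zone sum of at least 3 (no pIVCL 3 member and 2 of pIVCL 2) and with the wider gate, Cd74 was -2.10, -3.74 and -0.22, H2-Aa -1.05, -1.65 and -0.14, and H2-Ab1 -9.95, -11.86 and -0.044. Leaving out each library in turn gave highs of 2.40, 2.26 and 2.11 for these 3 genes. Cybb was -8.85 with a zone sum of at least 3. Without cells rich in Cd74, Cd74 was -0.83 and H2-Ab1 -8.36. Depth limits the group results, since 1 molecule in pIVCL 3 is 207 CPM.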
